A study of Arabidopsis thaliana with 4 samples.

Results

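The genes described here are the Arabidopsis trehalose-6-phosphate synthase gene TPS1 and its class II relatives TPS5 to TPS11, 8 genes chosen by locus. In the authors' comparison table, matching by gene name or locus tag found 8 lines, of which 7 lie at the position of a member. The remaining line carries the name TPS10 but lies at the terpene synthase 10 locus on chromosome 2, and was set aside. TPS9 was not found that way, because its line joins it with the neighbouring gene AT1G23880, which encodes an NHL domain-containing protein. Its FPKM was deposited for the joined line, so fragments of the 2 genes were not divided, and it is written TPS9* below. The members are thus 8 of 26822 lines with usable values.

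Wild type (WT) was set against SCL28-OX, a line that overexpresses the GRAS family transcription factor gene SCL28, both in the Col-0 ecotype. Seedlings were 5 d old and were raised on MS-based agar plates under constant light. The sources used here do not say whether the plates held sugar. The tissue is labelled root tip, though the extraction protocol speaks of roots. All SCL28-OX material came from 1 line, labelled SCL28-OX #10, and no source used here names the promoter that drives the transgene. Each genotype had 2 RNA-seq libraries. The labels do not tie them to separate cultures, so the spread behind every p-value is that of 2 libraries and may be technical.

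Trehalose-6-phosphate is a sugar phosphate that plants hold at trace amounts and use as a signal of sucrose supply. It is made by trehalose-6-phosphate synthase (TPS) and broken down to trehalose by trehalose-6-phosphate phosphatase (TPP), and trehalase then splits trehalose into glucose. The signal restrains SnRK1, a protein kinase that promotes the low-energy response. TPS1 is the synthase with established catalytic activity, and its loss arrests embryos. The class II proteins TPS5 to TPS11 carry a synthase-like and a phosphatase-like domain, and are generally thought to lack synthase activity. Among their transcripts, those of TPS8 to TPS11 are known to accumulate when sugar is scarce, while TPS5 is known as a sugar-induced gene.

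The 8 genes fall apart by structure as they do by class. In the RefSeq annotation of TAIR10.1 the coding sequence of TPS1 is spread over 17 exons, and that of each class II gene over 3. Coding lengths are close, from 2556 bases in TPS7 to 2829 bases in TPS1. Between TPS1 and the class II genes, 59.9% (TPS7) to 61.9% (TPS6, TPS1's nearest) of aligned coding bases are identical. Within class II the closest pair is TPS8 and TPS9, at 81.2%, with TPS10 at 72.4% to TPS8 and 72.2% to TPS9. TPS5 and TPS6 share 71.3%, while TPS11 stays between 65.1% and 67.2% of every other class II gene. In spite of these likenesses, 100% of the 50-base words in the longest transcripts of TPS6 to TPS11 occur in no other annotated gene, against 97.6% in TPS5 and 92.0% in TPS1. At the ends of 3 members a gene on the other strand overlaps: RHM1 and a noncoding RNA gene at TPS1, AT4G17780 at TPS5 and AT1G68030 at TPS6. The library kit keeps the strand, but no source used here says whether counting did. AT4G17780 was at or under 0.0367 FPKM in every library. AT1G68030 was at 2.76 and 2.74 FPKM in WT and 1.86 and 2.30 FPKM in SCL28-OX.

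The promoters of the 2 genes with the largest changes, TPS11 and TPS8, are shown. Each is the run of 250 bases before the annotated start of the gene, 5′ to 3′ on the strand of the gene, read from the RefSeq assembly TAIR10.1. They lie at chr2:8108648-8108897 (plus strand) for TPS11 and chr1:26474834-26475083 (minus strand) for TPS8. Capitals mark a match on either strand to CACGTG, the G-box of bZIP and bHLH factors, to ACTCAT, the ACT element of S1 group bZIP factors, to AACGG, the core of the MSA element that MYB3R factors bind in mitotic genes, or to TTATCC, a sugar-repressive element.
TPS11: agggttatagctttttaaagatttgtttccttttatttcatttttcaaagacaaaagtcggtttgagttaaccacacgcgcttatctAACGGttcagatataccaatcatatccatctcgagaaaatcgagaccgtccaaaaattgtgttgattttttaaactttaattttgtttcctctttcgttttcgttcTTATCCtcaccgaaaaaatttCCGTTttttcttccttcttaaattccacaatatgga
TPS8: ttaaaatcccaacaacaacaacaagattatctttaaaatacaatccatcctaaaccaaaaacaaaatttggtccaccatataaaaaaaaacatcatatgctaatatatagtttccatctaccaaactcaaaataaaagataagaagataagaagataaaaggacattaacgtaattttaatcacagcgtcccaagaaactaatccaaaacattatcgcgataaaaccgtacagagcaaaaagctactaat
The TPS11 window held AACGG 2 times, once on each strand, and TTATCC once. The TPS8 window held none of the 4 motifs. No matches overlap in these windows. Elsewhere TPS5 had an ACTCAT, and the windows of TPS1, TPS7, TPS9 and TPS10 had no match. Over the same window of 27443 protein-coding genes, CACGTG occurs in 6.49%, ACTCAT in 12.3%, AACGG in 20.6% and TTATCC in 12.5%. Whether these matches bear on the changes was not tested.

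Levels are given as FPKM, a fragment count divided by transcript length and by the size of the library. From the steps between low FPKM values, the libraries held about 32850000 and 27400000 fragments in WT and 28150000 and 25950000 in SCL28-OX, provided that the scaling was library by library. On that reading, 1 FPKM of a 3000-base transcript stood for 73.6 to 93.3 fragments. SCL28 itself stood at 6.78 and 7.57 FPKM in WT and at 2378 and 2300 FPKM in SCL28-OX. The 8 root tip markers summed to 112.8 and 116.4 FPKM in WT and to 107.7 and 109.2 in SCL28-OX, and none of the 8 was at 0. GL2 and SCR were called higher there and WER and PLT1 lower. With transcript length corrected, GL2 (0.46, limma adjusted p = 0.00118) and SCR (0.23, 0.00603) were still called higher, as with coding length corrected (0.43 and 0.26). With length and GC content corrected, neither GL2 (0.16, limma adjusted p = 0.0927) nor SCR (0.14, 0.0569) was called. In that fit 3 of the 8 were called lower. The 5 markers of root hairs and endodermis, cells of the more mature root, summed to 561.8 and 562.9 FPKM in WT and to 758.8 and 733.1 in SCL28-OX. Most of that rise was in PRP3, with a mean of 76.2 FPKM in WT and 218.5 in SCL28-OX. The ratio of means was 1.66 for COBL9, 1.09 for EXPA7, 1.09 for CASP1 and 0.999 for CASP2. The 12 photosynthesis genes taken as shoot markers summed to 159.5 and 159.8 FPKM in WT and to 229.6 and 231.3 in SCL28-OX, with RBCS1B and RBCS2B listed at 0 throughout. Both sums moved with the genotype, and their part in the changes below was not tested. In these bulk samples, more cells of a type and more RNA per cell cannot be told apart.

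In wild-type root tips all 8 genes were expressed, in an order in which no neighbours overlapped between libraries. TPS10 was highest at 48.0 and 47.9 FPKM in WT replicates 1 and 2, followed by TPS7 at 44.6 and 46.7, TPS9* at 41.1 and 39.6, and TPS8 at 21.9 and 21.2. TPS5 stood at 15.6 and 16.7 FPKM, TPS1 at 11.9 and 12.3, TPS11 at 9.95 and 10.13, and TPS6 at 6.94 and 6.59. The single established synthase gene of the 8 was thus among the less abundant members, with 6.04% of their summed FPKM on average. TPS7, TPS9* and TPS10 together made up most of that sum.

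**Figure D1:**
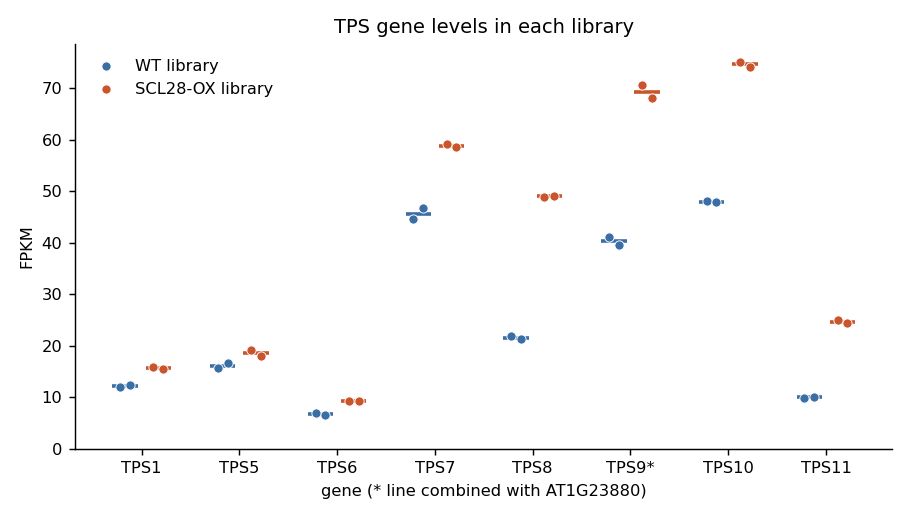
FPKM of the 8 TPS genes in each library, with points for the 2 WT (blue) and 2 SCL28-OX (orange) libraries and a short line for each mean. The SCL28-OX points lie above the WT points at every gene, and the gap is widest relative to the level at TPS8 (21.6 against 49.0 FPKM) and TPS11 (10.0 against 24.7).

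In SCL28-OX every member stood higher than in WT, without overlap between the 2 genotypes. Testing log2(FPKM + 1) with limma over all 18087 lines with a mean of at least 1 FPKM, 8 of 8 members were called higher at an adjusted p under 0.05. That count says little by itself, because the change over the whole transcriptome ran with transcript length. Of all tested lines 32.7% were called higher (33.8% lower), and 41.4% were higher without overlap. Of the 1900 tested lines whose longest transcript was as long as the members', 2945 to 5000 bases, 86.2% were called higher. The median log2 change was 0.52 over the members, 0.42 over the lines of their length and -0.01 over all tested lines. The members differed in the size of the change. TPS8 to TPS11 had log2 changes above those of most lines of their length, and they were again called higher when each library was corrected for its length trend. TPS1, TPS5, TPS6 and TPS7 were not. With that correction 4 members were called higher and 2 lower, against 21.3% of all tested lines higher, 25.8% lower, and 20.2% higher among lines of the members' length. A correction for coding length left 4 higher and 1 lower, against 20.4%, 24.9% and 21.3%. One for length and GC content together left 4 and 1, against 19.0%, 23.7% and 17.1%.

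**Figure D2:**
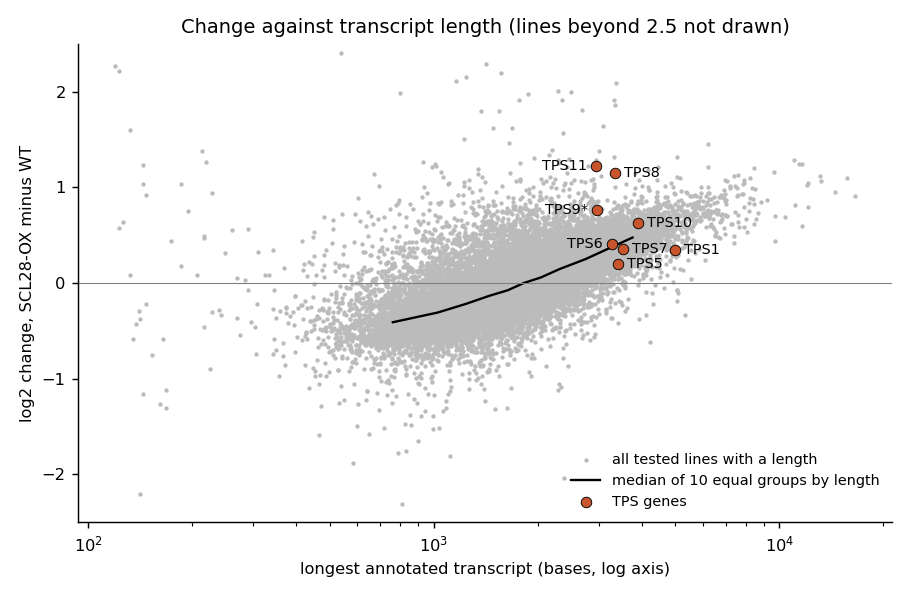
Log2 change (SCL28-OX minus WT, on log2(FPKM + 1)) of every tested line against the length of its longest annotated transcript in bases, on a log axis, with the median of 10 equal groups of lines by length as a black line and the TPS genes in orange. The median runs from -0.41 in the shortest group to 0.48 in the longest. TPS8, TPS9* and TPS11 lie above it, TPS6 and TPS7 close to it and TPS5 below it. TPS10 and TPS1 lie to the right of its last point, TPS10 higher than that point and TPS1 lower.

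TPS11 (AT2G18700), a class II gene known for its rise under low sugar, and TPS8 had the largest log2 changes of the members, with overlapping 95% intervals. TPS11 was the higher of the 2 in the uncorrected fit, and TPS8 with a pseudocount of 5 FPKM (1.02 against 0.98) and with the length and GC correction (0.88 against 0.86). On chromosome 2 (TAIR10, 8109043 to 8112010), it stood at 9.95 and 10.13 FPKM in WT and at 24.9 and 24.5 FPKM in SCL28-OX. Both SCL28-OX libraries were more than 2 times as high as either WT library. The mean went from 10.0 ± 0.126 to 24.7 ± 0.290 FPKM (SD, n = 2), 2.46 times as high, with a log2 change of 1.22 ± 0.05 by limma (SE; adjusted p = 9.96e-07). After the transcript length correction the log2 change was 0.92 (limma adjusted p = 8.03e-06), and it was 0.84 with the coding length and 0.86 with length and GC content together.

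TPS8 (AT1G70290, chromosome 1, 26471078 to 26474786), of the same low-sugar subset, was at 21.9 and 21.2 FPKM in WT and at 48.9 and 49.1 FPKM in SCL28-OX. Its mean rose from 21.6 ± 0.486 to 49.0 ± 0.155 FPKM (SD, n = 2), 2.27 times as high, with a log2 change of 1.15 ± 0.04 by limma (SE; adjusted p = 6.55e-07). With the length correction the log2 change was 0.76, and with the other corrections 0.78 (coding length) and 0.88 (length and GC). Log2 changes of at least 1 were rare: 0.675% of all tested lines were called higher by that much. Among the 1900 lines of the members' length, 99.6% had a smaller log2 change than TPS11 and 99.4% a smaller one than TPS8.

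TPS9*, whose line spans TPS9 (AT1G23870) and AT1G23880 (chromosome 1, 8432179 to 8438745), was at 41.1 and 39.6 FPKM in WT and at 70.6 and 68.0 FPKM in SCL28-OX. The ratio of means was 1.72 and the log2 change 0.76 ± 0.04 (SE; limma adjusted p = 1.87e-06), or 0.46, 0.39 and 0.38 after the corrections for transcript length, coding length, and length with GC. How much of this belongs to TPS9, the nearest relative of TPS8 by sequence, cannot be read from the joined line. TPS10 (AT1G60140, chromosome 1, 22176934 to 22180875), the most abundant member in both genotypes, was at 48.0 and 47.9 FPKM in WT and at 75.1 and 74.1 FPKM in SCL28-OX. Its ratio of means was 1.56 and its log2 change 0.63 ± 0.03 (SE; limma adjusted p = 1.84e-06). Of the 4 genes TPS8 to TPS11 it lay nearest to the length trend. Its log2 change was 0.15 after the transcript length correction (limma adjusted p = 0.00384), 0.25 with the coding length and 0.34 with length and GC. In the length range of the members, 95.1% of the lines had a smaller log2 change than TPS9* and 84.9% a smaller one than TPS10.

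TPS7 (AT1G06410, chromosome 1, 1954850 to 1958756), a class II gene, was at 44.6 and 46.7 FPKM in WT and at 59.1 and 58.5 FPKM in SCL28-OX. Its log2 change of 0.36 ± 0.03 (SE; limma adjusted p = 5.76e-05) went to -0.06 after the length correction, where it was not called (limma adjusted p = 0.207). TPS6 (AT1G68020, chromosome 1, 25497290 to 25500374), a class II gene that has been tied to cell shape, was at 6.94 and 6.59 FPKM in WT and at 9.24 and 9.36 FPKM in SCL28-OX. Its log2 change was 0.41 ± 0.06 (SE; limma adjusted p = 0.000616), or 0.04 after the length correction (limma adjusted p = 0.644). For these 2 genes 37.6% and 46.9% of the lines in the length range had a smaller log2 change, so both lay close to the middle of that range.

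TPS5 (AT4G17770, chromosome 4, 9876238 to 9880254), the sugar-induced member, had the smallest log2 change in the uncorrected fit, though after each of the 3 corrections TPS6 and TPS7 were nearer to 0. It was at 15.6 and 16.7 FPKM in WT and at 19.1 and 18.1 FPKM in SCL28-OX, a ratio of means of 1.15. Its log2 change of 0.19 ± 0.05 (SE; limma adjusted p = 0.0125) lost its call without WT replicate 1 (0.15; limma adjusted p = 0.0785) and without SCL28-OX replicate 1 (0.16; 0.0657). Leaving out single libraries gave adjusted p-values of 0.0139 to 0.0785 by limma. After the length correction TPS5 was called lower (-0.20; limma adjusted p = 0.0170), as it was with the coding length (-0.18; 0.0276), but not with length and GC (-0.15; 0.0609). In the uncorrected fit 14.4% of the lines in the length range had a smaller log2 change.

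TPS1 (AT1G78580) was at 11.9 and 12.3 FPKM in WT and at 15.9 and 15.5 FPKM in SCL28-OX, a ratio of means of 1.29, with a log2 change of 0.35 ± 0.05 by limma (SE; adjusted p = 0.000476). The direction turned with the length correction (-0.26; limma adjusted p = 0.00381) and with length and GC (-0.19; 0.0165), while with the coding length the change was -0.07 and not called (0.274). The longest annotated TPS1 transcript has 5000 bases and the coding sequence 2829; their part in the differences between corrections was not tested. The line of TPS1 is given with the interval of chromosome 1 from 29549649 to 29560912, which it shares with RHM1, a rhamnose synthase gene on the other strand whose annotated end overlaps that of TPS1 by 99 bases. RHM1 was more abundant, at 270.2 and 269.0 FPKM in WT and 300.6 and 297.5 FPKM in SCL28-OX, with a log2 change of 0.15. The 3 genes whose 4 values, centred on the mean of the gene on the log2 scale, came nearest to those of TPS1 among 14292 lines with a mean of at least 5 FPKM were PMEPCRF, ROPGEF10 and UGE1, with a root mean square difference of 0.00357, 0.00425 and 0.00429 over 4 libraries.

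**Figure D3:**
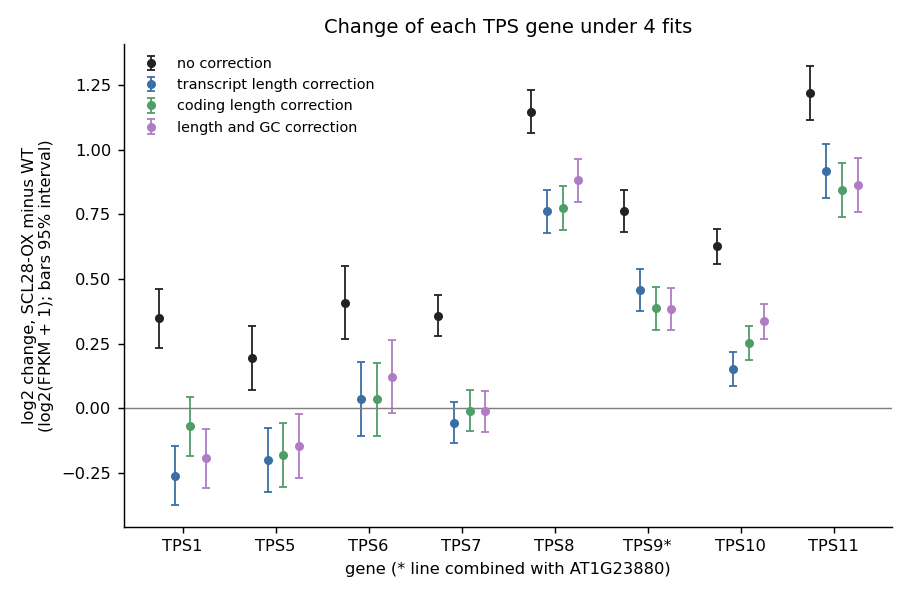
Log2 change (SCL28-OX minus WT, on log2(FPKM + 1)) of each TPS gene without correction (black) and after correction of each library for transcript length (blue), coding length (green) or length and GC content (purple), with limma 95% intervals as bars. TPS8, TPS9*, TPS10 and TPS11 lie above 0 in all 4 fits, and TPS1, TPS5 and TPS7 lie above 0 in the uncorrected fit but below it after correction.

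The intervals separate the 2 subsets without correction. The 95% intervals of TPS8 (1.06 to 1.23), TPS9* (0.68 to 0.85), TPS10 (0.56 to 0.69) and TPS11 (1.11 to 1.32) all began above the highest end among the other members, 0.55 at TPS6. After the transcript length correction those of TPS8, TPS9* and TPS11 still did, with the lowest beginning at 0.38 for TPS9* and TPS6 ending at 0.18. That of TPS10 (0.09 to 0.22) then overlapped the interval of TPS6. With the coding length, the interval of TPS10 began at 0.186, narrowly above the end of TPS6 at 0.176. With length and GC it began at 0.268, again narrowly above the end of TPS6 at 0.263. Ratios of members within 1 library, which do not depend on the scaling of that library, moved the same way. TPS11 was 0.835 and 0.824 times the FPKM of TPS1 in the WT libraries and 1.57 and 1.58 times in the SCL28-OX libraries. TPS8 was 1.41 and 1.28 times TPS5 in WT and 2.56 and 2.72 times in SCL28-OX. These pairs are close in coding length. The longest annotated transcripts have 2945 bases in TPS11 against 5000 in TPS1, but 3349 in TPS8 against 3403 in TPS5. A ratio shows unequal change only.

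The order of levels differed accordingly. In SCL28-OX TPS10 was again highest, but TPS9* lay above TPS7, where the WT order was the reverse, with TPS9* at 0.923 and 0.849 times TPS7 in WT and 1.20 and 1.16 times in SCL28-OX. TPS11 stood below TPS5 and TPS1 in WT and above both in SCL28-OX. As in WT, no neighbours in the order overlapped between the libraries of SCL28-OX. The summed FPKM of the 8 lines was 200.0 and 201.1 in WT and 322.8 and 317.1 in SCL28-OX. Of that sum TPS8 to TPS11 made up 60.5% and 59.1% in WT and 68.0% in both SCL28-OX libraries, with TPS8 going from a mean of 10.8% to 15.3% and TPS11 from 5.00% to 7.72%. The share of TPS10 was close in both genotypes, at 23.9% and 23.3%. TPS7 went from 22.7% to 18.4%, TPS5 from 8.04% to 5.81% and TPS1 from 6.04% to 4.90%.

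**Figure D4:**
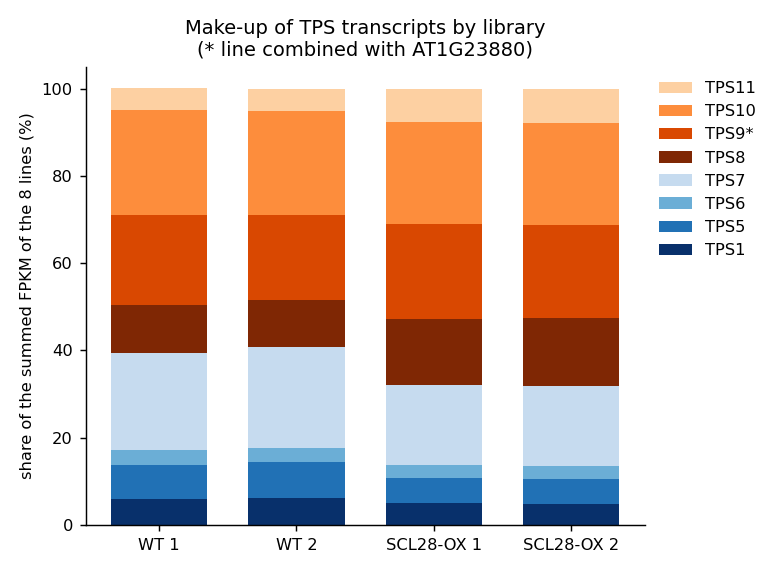
Share of each gene in the summed FPKM of the 8 TPS lines, in percent, for each library as a stacked bar. The orange to brown blocks (TPS8 to TPS11) fill 59.1% to 60.5% of the WT bars and 68.0% of the SCL28-OX bars.

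Most other genes of the trehalose pathway were not called or too low to test. Of the 14 further genes, namely TPS2 to TPS4, TPPA to TPPJ and the trehalase gene TRE1, 8 reached a mean of 1 FPKM, all of them TPP genes. Of these 4 were called lower and 1 higher, where 33.8% of all tested lines were lower and 32.7% higher (25.8% and 21.3% after the length correction). The median log2 change was -0.16. It was -0.145 after the transcript length correction, -0.132 with the coding length and -0.037 with length and GC. The counts were again 4 and 1 after each of the 3 corrections. With length and GC, TPPG was at -0.155 (limma adjusted p = 0.0436). Phosphatase gene TPPI went from 4.74 and 4.51 FPKM in WT to 2.76 and 2.41 FPKM in SCL28-OX, -0.65 ± 0.09 on the log2 scale (SE; adjusted p = 0.000351 by limma). TPPD was at 3.90 and 3.83 against 2.28 and 2.52 FPKM (-0.52), TPPA at 16.4 and 15.7 against 12.0 and 12.97 FPKM (-0.34), and TPPG at 44.1 and 39.7 against 35.6 and 35.1 FPKM (-0.24). The TPPG line also holds the upstream reading frame entry CPuORF27. The 4 genes that fell were at lower FPKM in both SCL28-OX libraries than in either WT library, and after the length correction their log2 changes were -0.61, -0.45, -0.44 and -0.24. TPPH was called higher (0.33; limma adjusted p = 0.0315) on libraries that differed, at 4.52 and 4.09 FPKM in WT and 4.97 and 6.42 in SCL28-OX. It was no longer called when WT replicate 2 was left out (0.27; limma adjusted p = 0.130) or when SCL28-OX replicate 2 was (0.17; 0.176). Leaving out single libraries gave adjusted p-values of 0.00345 to 0.176 by limma. TPPB, the most abundant phosphatase gene at 52.2 and 51.0 FPKM in WT and 50.2 and 48.7 in SCL28-OX, was not called (-0.06; limma adjusted p = 0.143), nor were TPPE (-0.08) and TPPJ (0.11).

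The remaining pathway genes were near or at the bottom of the scale. The class I genes TPS2 and TPS3, and TPPC, were listed at 0 in all 4 libraries, and TPS4 reached at most 0.101 FPKM. TRE1 was at 0.497 and 0.490 FPKM in WT and 0.643 and 0.337 in SCL28-OX. TPPF, on a line joined with CPuORF26, was at 0.748 and 1.01 FPKM in WT and 0.790 and 0.871 in SCL28-OX.

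Of 6 genes of subunits of SnRK1, the kinase downstream of the sugar phosphate, 3 were called higher and 1 lower, against 32.7% and 33.8% of all tested lines, with a median log2 change of 0.12. KINB1, a beta subunit gene, rose from 34.02 and 33.4 FPKM in WT to 50.7 and 51.2 in SCL28-OX, 0.58 ± 0.03 on the log2 scale (SE; adjusted p = 4.01e-06 by limma), or 0.67 after the length correction. The plant-specific subunit gene KINBG (0.43) rose as well, and the beta subunit gene KINB3 fell (-0.55), with 0.23 and -0.37 after the length correction. The length correction left 2 of the 6 called higher and 1 called lower, against 21.3% and 25.8% of all tested lines. These counts are close to those shares.

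Of the genes known to rise in darkness or sugar starvation, where TPS8 to TPS11 are known to rise too, most of those tested were higher. Whether they and TPS8 to TPS11 rose for a shared reason was not tested. Of 13 listed, 10 were tested, and the rest had means under 1 FPKM in both genotypes. Mean FPKM in WT and SCL28-OX was 0.33 and 0.69 for ASN1, 0.19 and 0.39 for BCAT2 and 0.12 and 0.11 for BGLU30. Of those tested 8 were called higher, 1 lower and 1, DIN4 (0.06), not called, around a median log2 change of 0.75. The list was chosen with earlier results of these data known, so its count is no independent support. The length correction left 9 called higher, with the median at 0.69. Of all tested lines 32.7% were called higher and 33.8% lower, or 21.3% and 25.8% after the length correction. SEN1 (2.11) and the raffinose synthase family gene DIN10 (1.38) rose most, DIN10 from 95.5 and 98.2 FPKM in WT to 254.7 and 254.0 in SCL28-OX. The bZIP factor gene BZIP53 was called lower (-0.24), a call lost after the length correction (-0.07; limma adjusted p = 0.109). Of the tested genes all but DIN10 have a longest transcript shorter than that of any TPS member. Among 19 genes of sucrose synthesis, cleavage and hexose phosphorylation, 16 were tested. Of these 10 were called higher and 1 lower, against 32.7% and 33.8% of all tested lines, around a median of 0.21. The sucrose phosphate synthase gene SPSA1 (0.65) and the vacuolar invertase gene VIN2 (0.57) rose most, and the sucrose phosphatase gene SPP1 fell (-0.17). The length correction left 5 of the 16 called higher and 4 called lower, against 21.3% and 25.8% of all tested lines. The median was then at -0.03, with SPSA1 at 0.21 and VIN2 at 0.21. With length and GC content corrected together, SPSA1 (0.10) and SPP1 (-0.07) were not called (limma adjusted p = 0.119 for each).

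**Figure D5:**
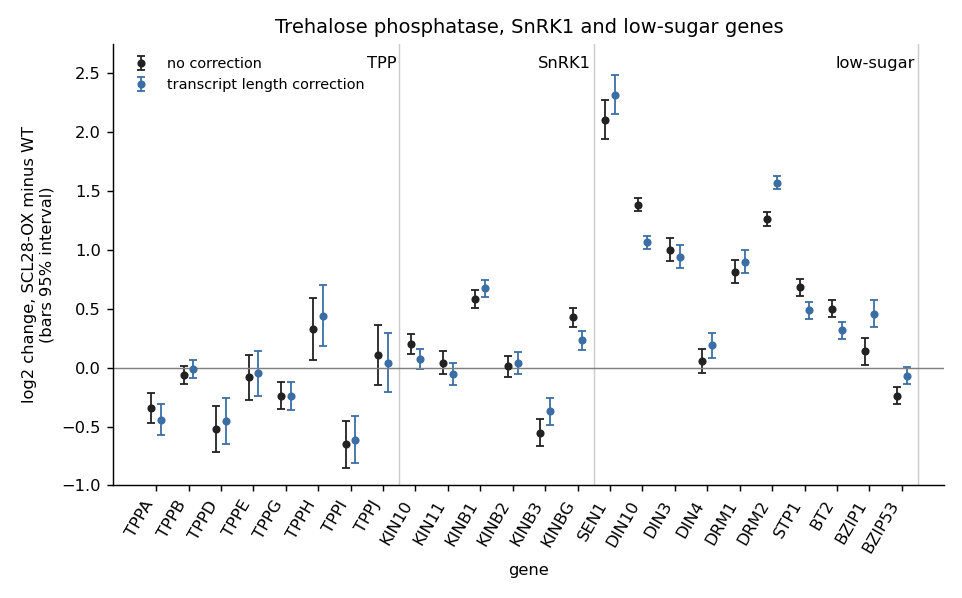
Log2 change (SCL28-OX minus WT, on log2(FPKM + 1)) of the tested TPP genes, SnRK1 subunit genes and low-sugar genes, without correction (black) and after the transcript length correction (blue), with limma 95% intervals as bars. TPPA, TPPD, TPPG and TPPI lie below 0 in both fits, and most low-sugar genes, led by SEN1 at 2.11, lie above 0.

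In the authors' deposited table every member, the joined TPS9 line included, has the same q-value of 0.00013715, as do TPPD, TPPG and TPPI, while TPPH has 0.0101073 and TPPB 0.150928. The shared q-value goes with p = 5e-05 in the authors' test, the smallest among the genes listed here. Many of these genes have it, SCL28 included, so it does not rank the members.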

How the data were processed

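Libraries were made from total RNA with the TruSeq Stranded mRNA kit, per the labels' protocols. The submitters' processing notes name CASAVA 1.8.2, TopHat2 2.0.13 and Cuffdiff 2.2.0 and the TAIR10 genome. Per the file headers, what the authors deposited is FPKM for 4 libraries, line by line. The authors' comparison table adds group mean FPKM, a test score that was not used, and p-values with q-values, as deposited. Of 26883 lines, 60 had shifted columns and were left out, and 1 is not analysed here. A line whose deposited mean missed that of the 2 libraries of the genotype by more than 0.1% counted as shifted. In the 26822 lines kept, the largest difference was 0.000725%.

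Members and lists were chosen with earlier results of these data known. The scale was log2(FPKM + 1) and the test limma 3.58.1, run in R 4.3.3 (eBayes with trend, two-sided, Benjamini-Hochberg over 18087 lines with a mean of at least 1 FPKM, threshold 0.05); this scale understates the change of low genes. The step was run on simulated data that held no length trend, so that run does not bear on changes that go with length. For the length correction, the deviation of each library from the line mean was smoothed by loess (span 0.3) on log2 length of the longest RefSeq transcript and subtracted; a joined line took the longest transcript of its loci. Across 17993 lines, Spearman's rho of the log2 change with length was 0.674; genes are no independent replicates. Lines were matched to loci by name and position on TAIR10.1, with starts counted from 1; no line ran past a chromosome's end, and 7285 starts of 26005 equalled RefSeq's.

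Depths were read from low FPKM steps in single-transcript genes, where 93.4% to 94.9% of values of 1 to 15 fragments were whole within 0.1. On such fragments same-genotype libraries were a little further apart than counting gives (chi-square per degree of freedom 1.17 in WT, p = 0.00802; 1.25 in SCL28-OX, p = 0.000346; chi-square tests over 445 and 439 genes), and each was counted as 1 replicate. All 8 members, the tested TPP genes, SCL28, up to 2 rises and 2 falls of each further list, and 3 genes like TPS1 could be named. The low-sugar genes that were not tested or not called are named as well. The promoter of 1 member is not reported here. Alternatives were other pseudocounts, filters, scalings and variance models, the replicate block, corrections for length, for coding length and for length with GC content, single libraries left out, and joined lines left out; the coding length and joined line settings were chosen after seeing the data.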

Additional observations from a re-analysis of the deposited data

How the results depend on the processing

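Of the 8 members, TPS8, TPS9, TPS10 and TPS11 kept their direction and their call under each of the 17 alternatives that gave a value, TPS9 having none without joined lines, and TPS1, TPS6 and TPS7 under all but the 3 corrections. The count of members called higher fell to 4 with the correction for transcript length, for coding length, and for length with GC content, and the count called lower was 2, 1 and 1 there against 0. TPS1 turned to -0.26, -0.07 and -0.19, TPS5 to -0.20, -0.18 and -0.15 and TPS7 to -0.056, -0.009 and -0.012 under these 3 in that order; TPS6 was at 0.04, 0.04 and 0.12, with no call. By construction these settings remove what runs with length. The members called higher numbered 7 to 8, and those called lower 0, with single libraries left out.

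Sucrose metabolism genes called higher numbered 5, 5 and 3 and those called lower 4, 5 and 5 under the same 3 corrections, and low-sugar genes called lower 0 in each. BZIP53 was at 0.08 with the coding length and 0.033 with length and GC, where TPPB (0.08) and TPPE (0.14), neither called, also changed sign, and TPPJ, not called, ran from -0.011 to 0.229 with single libraries left out. Of the other pathway genes, none was called higher without the filter, at a minimum mean of 5 FPKM (which tests 3 of them, with 2 called lower), with quantile normalization and with eBayes without trend; with single libraries left out the count was 0 to 1. The cause was not tested beyond the number of genes tested.

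The 2 genotypes share replicate numbers, but the labels do not tie them. The deviations of same-numbered libraries correlated at 0.122 over 18087 genes. With the replicate block 8 members were called higher and none lower, and it changed no call among the members, the TPP genes and the named SnRK1, sucrose and low-sugar genes; over all lines it gave 5793 higher and 6161 lower, against 5911 and 6112. Median log2 changes over all lines stayed between -0.030 and -0.004 under the alternatives. Depth limits statements on TPS4, TRE1, TPPF, ASN1, BCAT2 and BGLU30, all under 1.1 FPKM.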
